A study of Mus musculus with 6 samples.

Results

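Matrix metalloproteases (Mmp), ADAM and ADAMTS proteases, ADAMTS-like proteins (Adamtsl) and tissue inhibitors of metalloproteases (Timp) were examined in endothelial cells of lymph nodes (LN). Members were all genes whose symbol begins with one of these family names followed by a digit and that have a probe set of their own on the array, which gave 70 of 18194 genes. They comprised 18 Mmp, 28 Adam, 15 Adamts, 5 Adamtsl and 4 Timp genes, with 124 probe sets. Where a gene has several probe sets, the brightest by the mean of the 6 arrays was read. RNA came from pooled skin-draining and mesenteric LN of C57BL/6 mice aged 6 weeks. Stromal cells were enriched by depletion of CD45-bearing cells and sorted by gp38 and CD31, and 20 ng of RNA per sample went through 2 rounds of amplification before hybridization to GeneChip mouse genome arrays. One group of 3 arrays is labelled double positive (BEC in the title) and the other group of 3 is labelled CD31+ (LEC in the title). Under the sort described for the study, gp38+ CD31+ cells are lymphatic endothelial cells (LEC) and gp38neg CD31+ cells are blood endothelial cells (BEC), so the gate word and the cell type word of each label point to opposite groups. The arrays are named by the gate word here, and differences are on the log2 scale, double positive minus CD31+ group mean. Read by the cell type word, the groups would exchange names and every sign would turn.

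In limma at 5% FDR the double-positive arrays had higher values for 5 of 8 lymphatic markers, with Lyve1 higher by 5.32 and Pdpn, which encodes gp38, by 4.07, while Prox1 differed by 0.07 at its brightest probe set. Of 8 blood endothelial markers, 5 were lower, with differences of -4.52 for Flt1 and -4.37 for Cd34. The values have a floor at 2.39. Between 10.7% and 14.7% of the probe sets of an array reached a log2 value of 5, and the 5764 probe sets whose mean was 5 or more had a median difference of 0.75. Centring each array on the median of these probe sets lowered every difference by 0.68, so the size of a difference depends on this scaling. Both arrays numbered 2 stood apart at the control probe set for B1 repeats, with 12.8 in double-positive replicate 2 and 12.3 in CD31+ replicate 2, against 7.47 to 8.11 on the others. In sorted bulk RNA, fewer cells that express a gene and less RNA per cell cannot be told apart.

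These families act around the cell surface and in the matrix. Mmp proteins are zinc-dependent proteases that are made as inactive precursors and cleave collagens and other matrix proteins, either in solution or anchored in the membrane. ADAM proteins are mostly membrane-anchored and release the outer part of growth factors, cytokines, adhesion molecules and Notch receptors, whereas ADAMTS proteases are secreted and cleave proteoglycans such as versican, procollagens or von Willebrand factor. Timp proteins bind the active site of these enzymes, and Timp3 in addition inhibits several ADAM and ADAMTS proteases. Adamtsl proteins resemble the non-catalytic part of ADAMTS proteases and lack the protease domain.

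Few of the 70 genes were bright in either type of endothelium, and most that were had higher means in the double-positive arrays. Adam17 and the brightest probe set of Adamts9 turned below 0 once the arrays were centred, and Mmp2 reached 5 on a single CD31+ array. Mmp9 and Adamts5 were bright in the double-positive arrays alone, which in itself required them to be higher there. Only 12 members reached a log2 value of 5 on any array, and 20 lay within 0.1 of the floor on all 6. Mmp9, a gelatinase, and Adam9, a widely expressed ADAM protease, rose in the double-positive arrays by 3.40 and 2.41. Timp2, Timp3, Timp4, Mmp14, Adam10 and Adamts5 were also higher on all 3 double-positive arrays than on any CD31+ array. Their group means differed by 1.30 to 2.70, but they did not pass the test over all probe sets without filter or centring. Adamts1 and the dim Mmp13 were likewise separated, with mean differences of 0.77 and 1.03. Groups were separated in this direction for 16.9% of all genes and 46.9% of those with a mean of at least 5.

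Across all probe sets with no filter, limma at 5% FDR called 2 of the 70 members higher in the double-positive arrays, where the same test called 0.879% of all genes higher. It called 0 members lower, against 0.176% of all genes. At an unadjusted p under 0.05, 10 members were higher and 0 were lower, against 12.5% and 2.12% of all genes, so the share of members that were higher was near that of all genes. With a filter that kept the 6088 probe sets with log2 values of at least 5 on at least 3 arrays, 11 members were tested, of which 8 were called higher, against 33.2% of all genes that passed the filter, and 0 were called lower, against 4.11%. Mmp9 and Adamts5 passed this filter through the double-positive arrays alone, so the filter itself required them to differ. Of the 9 others, which reached 5 in both groups, 6 were called higher, against 29.7% of all such genes, and 0 lower, against 2.65%. After centring as well 4 of these 9 were called higher, against 9.53%, and 0 lower, against 8.56%. Over all 11 the filter and centred arrays gave 6 called higher, against 12.6% of all genes, and 0 lower, against 9.63%. Centring without the filter gave 8 members called higher, against 7.2%, and 54 lower, against 67.2%, since it moves all values at the floor by the same shift. With the filter and the replicate number as a block 8 were called higher, against 46.4%, and 0 lower, against 4.99%, whereas the block without the filter left 0 members called, against 0.011% of all genes called higher and 0% called lower. The groups did not overlap for 10 members that were higher and 2 that were lower in the double-positive arrays, against 16.9% and 3.42% of all genes. Among the 10 members with a mean of at least 5, the groups did not overlap for 8 that were higher and 0 that were lower, against 46.9% and 5.5% of all genes with such a mean. The median difference was 0.00 over the 70 members and 0.00 over all genes. Over these 10 members it was 1.57, and over all genes with such a mean it was 0.73.

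**Figure D1:**
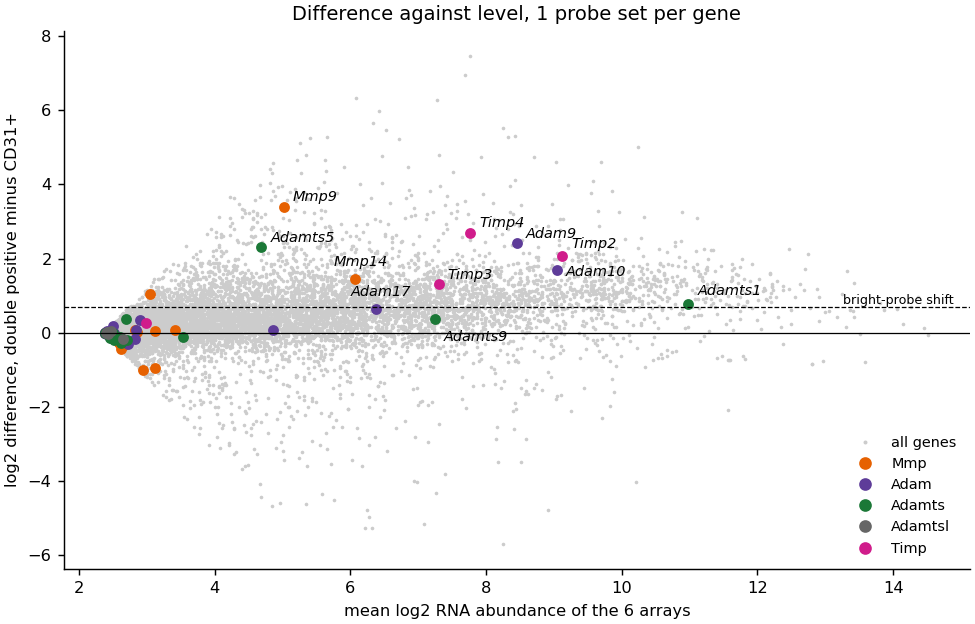
Difference between the group means (log2, double positive minus CD31+, vertical axis) against the mean log2 abundance of the 6 arrays (horizontal axis), 1 point per gene, with the members coloured by family over all 18194 genes in grey. The dashed line is the shift of 0.68 removed by centring the arrays. Most members lie at the left edge near the floor of 2.39, and the named members lie above 0, with Adam17, Adamts9 and Timp1 below the dashed line.

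Among the Mmp genes, 2 of 18 were bright, Mmp14 in both groups and Mmp9 in the double-positive arrays alone. Mmp9 had log2 values of 6.72, 6.94 and 6.51 on the double-positive arrays and 3.47, 3.42 and 3.07 on the CD31+ arrays. All 3 CD31+ values were dim, at most 3.47, though above the floor, and the groups were far apart. The difference was 3.40 (standard error 0.170, adjusted p = 0.0169 from limma), and the pairs of same-numbered arrays differed by 3.25, 3.53 and 3.44. Its other probe set gave 3.33 (adjusted p = 0.0169 from limma). Leaving out any 1 of the 6 arrays kept the difference between 3.28 and 3.51 but gave adjusted p-values of 0.0507 to 0.0905, and the replicate block gave 0.109. With centred arrays the difference was 2.73.

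Mmp9 is made in quantity by neutrophils and macrophages, so their markers are given beside it. Of 7 neutrophil markers, none exceeded 2.42 on a double-positive array, and the highest value on a CD31+ array was 3.32, for S100a9. S100a8, a calcium-binding protein that is abundant in neutrophils, lay between 2.39 and 2.42 on all 6 arrays. Of 7 macrophage and dendritic cell markers, Csf1r, Adgre1, Itgam, Itgax, Lyz2 and Cd68 were at most 3.04 on the double-positive arrays. Marco, a scavenger receptor, was the exception, at 8.36, 6.16 and 8.12 on the double-positive arrays and 2.88 on each CD31+ array. The summed level of the list was 6.76 to 8.52 on the double-positive arrays and 5.43 to 5.67 on the CD31+ arrays (log2 of the sum), most of it Marco on the double-positive arrays. The part of neutrophils or macrophages in the values of Mmp9 was not tested.

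Mmp14, the membrane-anchored collagenase that activates the Mmp2 precursor, had 6.50, 6.74 and 7.16 on the double-positive arrays and 5.48, 5.11 and 5.42 on the CD31+ arrays. The groups did not overlap, and their distance was smaller than that of Mmp9. The difference was 1.46 (standard error 0.216, adjusted p = 0.107 from limma), and the adjusted p was 0.00670 with the filter. With the filter and centred arrays it was 0.79 and did not pass (adjusted p = 0.117 from limma). The other probe sets of Mmp14, at most 2.59 in the mean of either group, differed by 0.01 and -0.10.

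The other 16 Mmp genes reached at most 5.01 on any array, and limma called 0 of them (1 at an unadjusted p under 0.05). That gene was Mmp13, a collagenase, with 3.77, 2.98 and 3.94 on the double-positive arrays and 2.54, 2.60 and 2.47 on the CD31+ arrays, and the means differed by 1.03 (adjusted p = 0.349 in limma). It is one of 9 measured Mmp genes that neighbour each other on chromosome 9 (RefSeq annotation, GRCm38.p6), with Mmp1a, Mmp1b, Mmp3, Mmp7, Mmp8, Mmp10, Mmp12 and Mmp20, and 3.94 was the highest value of the whole cluster on any array. Mmp13, Mmp2, Mmp23 and Mmp8 were singled out after their values had been seen.

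A few dim Mmp genes had their highest values on CD31+ arrays. Mmp2, a gelatinase of mesenchymal cells, had 2.44, 2.44 and 2.42 on the double-positive arrays and 2.91, 5.01 and 2.44 on the CD31+ arrays, with a mean difference of -1.02 (adjusted p = 0.659 in limma), most of which comes from CD31+ replicate 2. Its other probe set had 2.62, 2.66 and 2.60 on the double-positive arrays and 3.04, 3.56 and 2.70 on the CD31+ arrays, where the groups did not overlap and differed by -0.48 (adjusted p = 0.659 in limma). CD31+ replicate 2, the highest at both probe sets, also had the highest values of the pericyte genes Pdgfrb, at 4.14, 4.78 and 2.99 on the double-positive arrays and 7.06, 8.50 and 5.12 on the CD31+ arrays, and Acta2, at 4.27, 4.17 and 3.49 against 6.34, 7.43 and 5.17. Mmp23 had 2.62, 2.62 and 2.67 on the double-positive arrays and 4.70, 3.26 and 2.83 on the CD31+ arrays, and the means differed by -0.96 (adjusted p = 0.659 in limma), with all 3 CD31+ arrays above every double-positive array. It was highest on CD31+ replicate 1, as were the fibroblast collagens Col1a2, with 4.04, 2.74 and 3.25 on the double-positive arrays and 7.10, 6.77 and 5.48 on the CD31+ arrays, and Col3a1, with 5.12, 3.38 and 3.74 against 7.94, 7.44 and 6.29. Among the CD31+ arrays the fibroblast markers Pdgfra, Postn and Thy1 were also highest on replicate 1. Dcn (6.34, 6.41 and 3.53) and Lum (2.62, 2.72 and 2.39) were instead highest there on replicate 2, and Col1a1 (2.39, 2.49 and 2.86) on replicate 3. The part of pericytes or fibroblasts in the values of Mmp2 and Mmp23 was not tested. Over their whole lists, the summed levels were 7.57 to 8.04 on the double-positive arrays and 7.33 to 9.72 on the CD31+ arrays for 7 pericyte and smooth muscle markers, and 11.05 to 11.85 against 8.10 to 9.30 for 8 fibroblast markers (log2 of the sum), the second being led by Postn on the double-positive arrays. Des, a defining pericyte marker, was at the floor on all 6 arrays, and Col1a1 reached at most 2.86. The fibroblast markers Postn and Thy1 were higher in the double-positive arrays, by 4.60 and 3.03 (adjusted p = 0.0221 and 0.0232 in limma). The pericyte marker Rgs5 differed by 0.33. Of the 5 fibroblast markers that passed the filter limma called 2 higher and 2 lower. Of the 3 pericyte and smooth muscle markers that passed, it called 0 higher and 2 lower. The shares over all genes that passed were 33.2% higher and 4.11% lower. Mmp8, a neutrophil collagenase, had 2.49 on every array except CD31+ replicate 1, where it had 3.52.

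**Figure D2:**
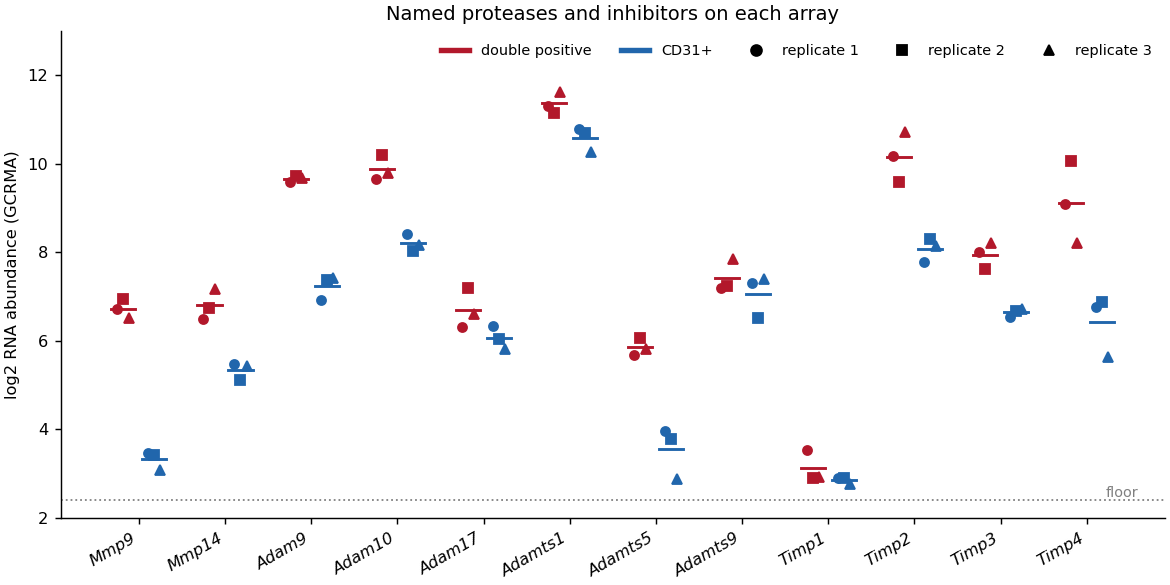
Log2 RNA abundance (GCRMA, vertical axis) of the 12 named members on each of the 6 arrays, double-positive arrays left and CD31+ arrays right of each gene, with bars at the group means (n = 3 each) and symbols for the replicate numbers. For Mmp9, Mmp14, Adam9, Adam10, Adamts1, Adamts5, Timp2, Timp3 and Timp4 all double-positive values lie above all CD31+ values.

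Of the 28 Adam genes 3 were bright in both groups, and 2 of these were higher in the double-positive arrays. Adam9 had 9.58, 9.72 and 9.67 on the double-positive arrays and 6.93, 7.37 and 7.43 on the CD31+ arrays. The double-positive arrays were within 0.14 of each other and well above every CD31+ array. The difference was 2.41 (standard error 0.155, adjusted p = 0.0260 from limma), or 5.33-fold on the linear scale, with 2.65, 2.35 and 2.25 in the 3 pairs. Without CD31+ replicate 1 the adjusted p was 0.0176, without any other single array it was 0.0681 to 0.119, and with the replicate block it was 0.169, at differences of 2.26 to 2.50. Once dim probe sets were left out it was 0.000352, and after centring as well, at 1.74, it was 0.00231.

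Adam10, the main protease that cleaves Notch receptors at the cell surface, had 9.65, 10.20 and 9.80 on the double-positive arrays and 8.42, 8.02 and 8.16 on the CD31+ arrays. Every double-positive array was above every CD31+ array, by at least 1.23. The difference was 1.68 (standard error 0.194, adjusted p in limma 0.0667). Once dim probe sets were left out it passed (adjusted p = 0.00297), also with centring, at 1.01 (adjusted p = 0.0379). Its 3 further probe sets were at most 2.56 in the mean of either group and carried no difference above 0.07.

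Adam17, which releases TNF and ligands of the EGF receptor, had 6.32, 7.19 and 6.60 on the double-positive arrays and 6.33, 6.04 and 5.82 on the CD31+ arrays. The groups overlapped. The difference was 0.64 (95% interval -0.12 to 1.40, adjusted p = 0.659 from limma), and it was -0.04 with centred arrays.

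The other 25 Adam genes were dim, and limma called 0 of them (0 at an unadjusted p under 0.05). Of these, 21 stayed below 3 on all 6 arrays and 12 lay within 0.1 of the floor, among them Adam2 and Adam5, which are known from testis. Adam15, known from endothelium, was the brightest of them and had 4.89 on every array but CD31+ replicate 3, where it had 4.71, so no difference could be read from it. Adam34, a testis gene, stood above the floor only on the arrays numbered 2, with 4.43 in double-positive replicate 2 and 3.40 in CD31+ replicate 2, the arrays with the bright B1 control. Adam15 and Adam34 were singled out after their values had been seen. Another 4 probe sets that are shared by Adam1a and Mapkapk5, and 1 shared by Adam6a and Adam6b, were not read as members.

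The ADAMTS proteases ranged from the brightest member to genes at the floor. Adamts1, a versican-cleaving protease, had 11.31, 11.16 and 11.63 on the double-positive arrays and 10.80, 10.69 and 10.28 on the CD31+ arrays, and was above 10 on all 6. The groups did not overlap, but lay close together. The difference was 0.77 (95% interval 0.23 to 1.32, adjusted p = 0.316 from limma), which did not pass with the filter either (adjusted p = 0.0648) and was 0.10 with centred arrays. Adamts5, an aggrecan- and versican-cleaving protease, had 5.68, 6.06 and 5.81 on the double-positive arrays and 3.97, 3.78 and 2.88 on the CD31+ arrays. The groups did not overlap, and the difference was 2.30 (standard error 0.340, adjusted p in limma 0.107), or 1.63 with centred arrays. Its calls with the filter are not given as support, because it passed the filter through the double-positive arrays alone. A pair of its dimmer probe sets went the same way, by 1.45 and 0.83, without passing, and the third lay at the floor.

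Adamts9, another versican-cleaving protease, had 7.19, 7.23 and 7.86 on the double-positive arrays and 7.30, 6.51 and 7.39 on the CD31+ arrays. The groups overlapped at this probe set, with a difference of 0.36 (95% interval -0.56 to 1.27, adjusted p = 0.659 from limma) that was -0.32 with centred arrays. At another probe set Adamts9 differed by 0.90, with group means of 6.94 and 6.04, a difference that limma called with the filter (adjusted p = 0.0352) and not without it (adjusted p = 0.173), and that was 0.23 with centred arrays. The 12 other Adamts genes reached at most 4.10, and limma called 0 of them (0 at an unadjusted p under 0.05). Adamts3, which with Ccbe1 activates VEGF-C in lymphatic development, had 2.44, 2.47 and 2.55 on the double-positive arrays and 2.56, 2.61 and 3.11 on the CD31+ arrays, and Ccbe1 was at most 2.73. Adamts4, an aggrecanase, had 2.75, 4.10 and 3.62 on the double-positive arrays and 3.59 on each CD31+ array. Adamts3 and Adamts4 were singled out after their values had been seen. All 5 Adamtsl genes stayed at or below 3.02, and limma called 0 of them (0 at an unadjusted p under 0.05).

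**Figure D3:**
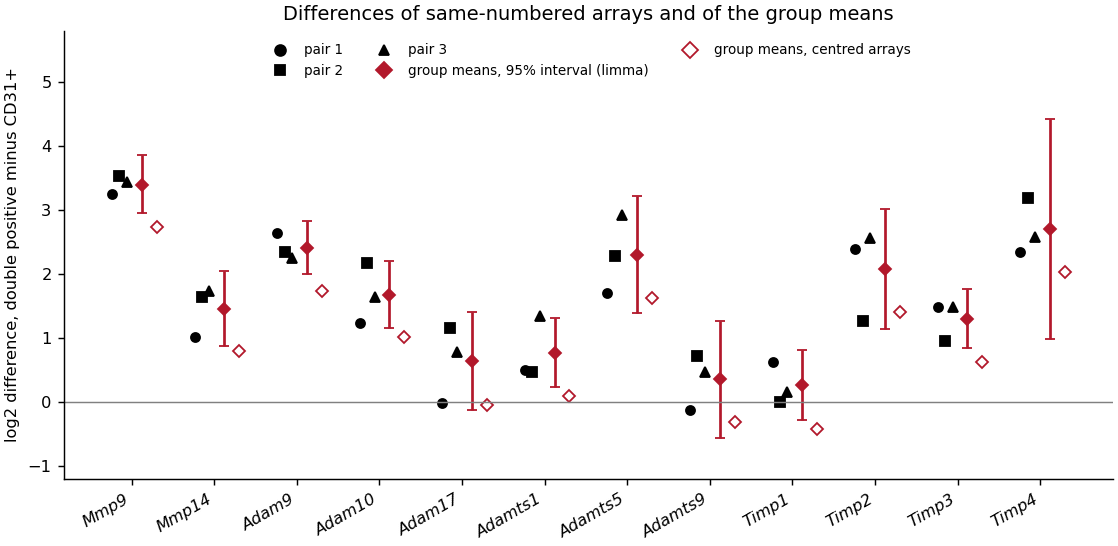
Log2 difference (double positive minus CD31+, vertical axis) of the 12 named members for each pair of same-numbered arrays (black), for the group means with the 95% interval from limma (filled red) and for the group means of centred arrays (open red). All 3 pairs lie above 0 for 9 of the 12 members, and Adam17, Adamts9 and Timp1 fall below 0 once the arrays are centred. Members were named partly by calls on these same arrays, so this count is not a test of direction.

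Of the 4 inhibitors, Timp2, Timp3 and Timp4 were bright in both groups and higher in the double-positive arrays, and Timp1 was dim in both. Without the filter limma called 0 of the 4 higher or lower, while 3 were higher and 0 lower at an unadjusted p below 0.05, against 12.5% and 2.12% of all genes. With the filter it called 3 of the 3 tested higher, where it called 33.2% of all genes. Timp4, the inhibitor with the most restricted expression, had 9.10, 10.07 and 8.21 on the double-positive arrays and 6.76, 6.88 and 5.63 on the CD31+ arrays. Both groups were lowest in replicate 3, and the pairs differed by 2.34, 3.19 and 2.58. The difference was 2.70 (standard error 0.641, adjusted p = 0.259 from limma). It passed with the filter (adjusted p = 0.00496), with the filter and the block (adjusted p = 3.59e-05) and with the filter and centred arrays, at 2.03 (adjusted p = 0.00745). The other probe set of Timp4, at most 2.54 in the mean of either group, differed by 0.03.

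Timp2, which takes part in the activation of the Mmp2 precursor by Mmp14, had 10.17, 9.58 and 10.72 on the double-positive arrays and 7.78, 8.30 and 8.15 on the CD31+ arrays. Every double-positive array was above every CD31+ array. The difference was 2.08 (standard error 0.350, adjusted p in limma 0.139). Once dim probe sets were left out it passed (adjusted p = 0.00283), also with centring, at 1.40 (adjusted p = 0.0191). Its second brightest probe set differed by 1.62 (adjusted p = 0.0294 with the filter), but did not pass with the filter and centred arrays, at 0.94 (adjusted p = 0.126). A dimmer probe set differed by 2.20, while the 3 others, at or below 2.96 in the mean of either group, differed by -0.32 to 0.00.

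Timp3, the inhibitor that binds to the matrix, had 8.0, 7.63 and 8.21 on the double-positive arrays and 6.53, 6.68 and 6.72 on the CD31+ arrays. The difference was 1.30 (standard error 0.171, adjusted p = 0.0850 from limma), and 1.84 and 1.62 at its next brightest probe sets. At the brightest probe set the filter gave a call (adjusted p = 0.00895). This was lost when double-positive replicate 1 or 3 was also left out (adjusted p = 0.0556 and 0.0550). It was lost as well once the filtered arrays were centred, at 0.62 (adjusted p = 0.166). Limma also called the probe set that differed by 1.84 once dim ones were left out (adjusted p = 0.00853). There the call held after centring, at 1.16 (adjusted p = 0.0209). Timp1, the inducible inhibitor, had 3.53, 2.90 and 2.92 on the double-positive arrays and 2.90, 2.90 and 2.76 on the CD31+ arrays, a difference of 0.26 (95% interval -0.29 to 0.81, adjusted p = 0.659 from limma) that was -0.42 with centred arrays.

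**Figure D4:**
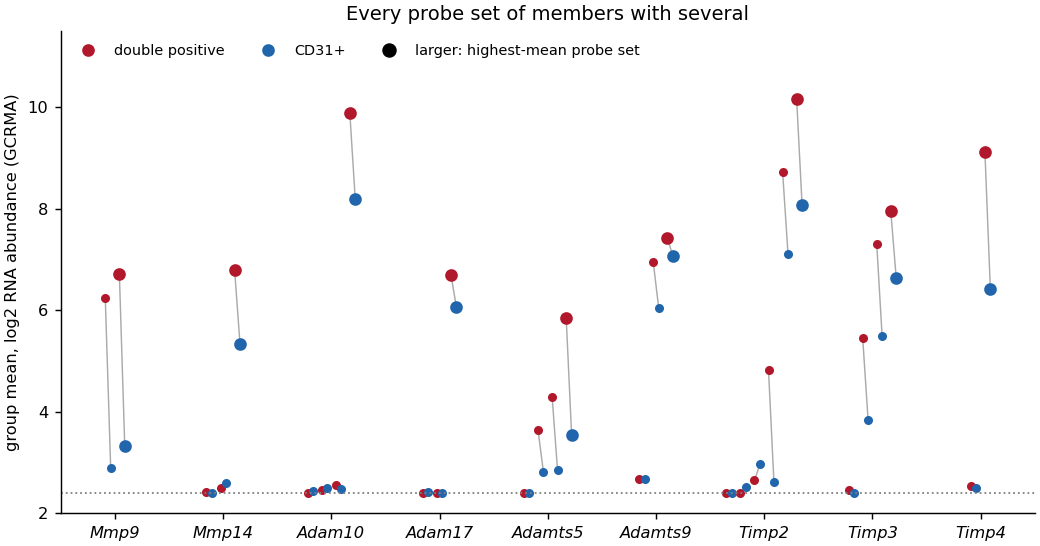
Group means (log2 RNA abundance, vertical axis) of every probe set of the 9 named members that have more than 1, double positive in red joined to CD31+ in blue, with larger points for the probe set with the highest mean and the floor dotted. The bright probe sets of Mmp9, Adamts9, Timp2 and Timp3 differ in the same direction without centring, as do the probe sets of Adamts5 above the floor. Many further probe sets lie at the floor in both groups.

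The 8 members that passed with the filter were all higher in the double-positive arrays, and for 5 of them the RefSeq table of promoters (GRCm38.p6) held an entry. These windows are shown to compare the sequence before the start of genes that differed in the same direction. Each holds the 250 bases before the annotated start, 5′ to 3′ on the strand of the gene, with capitals for matches to the GC box GGGCGG, the AP-1 site TGANTCA or the TATA box TATAAA on either strand. The 3 motifs did not overlap each other in these windows, but copies of the GC box adjoin in Mmp14 and a pair of copies shares a base in Adam10.
Mmp14, chr14:54431348-54431597, plus strand: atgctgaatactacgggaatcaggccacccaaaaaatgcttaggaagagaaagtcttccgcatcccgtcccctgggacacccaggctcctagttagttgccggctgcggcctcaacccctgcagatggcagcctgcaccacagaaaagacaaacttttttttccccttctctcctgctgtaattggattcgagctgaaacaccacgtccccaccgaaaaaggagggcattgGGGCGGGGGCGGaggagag
Adam10, chr9:70678732-70678981, plus strand: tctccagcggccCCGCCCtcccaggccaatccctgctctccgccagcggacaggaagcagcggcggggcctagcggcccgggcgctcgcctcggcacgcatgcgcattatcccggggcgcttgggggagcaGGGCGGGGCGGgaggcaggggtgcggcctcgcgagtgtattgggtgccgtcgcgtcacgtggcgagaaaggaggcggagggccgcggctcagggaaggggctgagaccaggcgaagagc
Timp2, chr11:118355412-118355661, minus strand: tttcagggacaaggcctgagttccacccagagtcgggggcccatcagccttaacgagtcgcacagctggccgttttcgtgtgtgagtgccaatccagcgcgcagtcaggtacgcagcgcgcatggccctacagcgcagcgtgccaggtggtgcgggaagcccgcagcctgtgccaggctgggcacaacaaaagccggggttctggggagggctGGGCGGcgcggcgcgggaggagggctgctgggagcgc
Timp3, chr10:86300162-86300411, plus strand: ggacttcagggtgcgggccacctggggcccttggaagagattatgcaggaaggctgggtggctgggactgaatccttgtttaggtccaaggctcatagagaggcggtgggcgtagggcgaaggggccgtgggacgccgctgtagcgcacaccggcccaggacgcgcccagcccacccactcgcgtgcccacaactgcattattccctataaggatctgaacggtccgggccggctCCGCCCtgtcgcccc
Timp4, chr6:115252206-115252455, minus strand: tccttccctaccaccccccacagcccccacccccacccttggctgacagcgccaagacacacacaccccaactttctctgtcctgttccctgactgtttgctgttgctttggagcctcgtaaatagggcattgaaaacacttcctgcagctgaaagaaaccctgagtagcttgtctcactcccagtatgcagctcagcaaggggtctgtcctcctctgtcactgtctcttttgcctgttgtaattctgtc
The windows of Mmp14, Adam10, Timp2 and Timp3 held 2, 3, 1 and 1 GC boxes, and that of Timp4 held 0. A GC box was found in 35.4% of all 27025 genes in the table and in 19 of 41 members with an entry. The AP-1 site, known from several Mmp promoters, and the TATA box were not matched in any of the 5 windows. Over all genes in the table they were matched in 7.8% and 14.3%, and over the 41 members in 10 and 11. The GC content of the windows was 55.2% for Mmp14, 74.0% for Adam10, 68.0% for Timp2, 65.6% for Timp3 and 53.6% for Timp4, against a median of 52.4% over all windows.

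Genes that regulate or assist these proteases were next considered. Limma called 0 of 27 listed regulators higher or lower, although 6 had a higher and 0 a lower mean with an unadjusted p below 0.05, against 12.5% and 2.12% of all genes. Of the 6 that passed the filter 2 were called higher, a share like the 33.2% of all genes, and 0 lower, against 4.11%. Reck, a membrane-anchored inhibitor of several Mmp proteins including Mmp9 and Mmp14, had 8.92, 7.80 and 8.34 on the double-positive arrays and 6.06, 4.90 and 4.82 on the CD31+ arrays. The groups did not overlap. The difference of 3.09 missed the threshold in limma over all probe sets (adjusted p = 0.125) and passed once dim ones were left out (adjusted p = 0.000918), also with centring (adjusted p = 0.000832). Pcsk5, a proprotein convertase, had 8.74, 8.18 and 8.87 on the double-positive arrays and 7.30, 7.75 and 7.02 on the CD31+ arrays, 1.24 higher on average, which limma called with the filter (adjusted p = 0.0191) but not after centring (adjusted p = 0.194).

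Partners that bring ADAM proteases to the cell surface were also listed. Rhbdf1, which escorts Adam17 to the cell surface, had 5.81, 5.41 and 6.25 on the double-positive arrays and 5.04, 4.40 and 5.19 on the CD31+ arrays, a difference of 0.95 that passed only with the filter and the block (adjusted p = 0.0174 from limma). Its relative Rhbdf2 was at most 2.46. Among the tetraspanins that bind Adam10, Tspan14 differed by 1.42 (adjusted p = 0.237 from limma), Tspan5 by 0.19 and Tspan33 by 0.19, and Tspan10, Tspan15 and Tspan17 were at most 3.05. The convertase Furin was at most 2.92. Over the list the median difference was 0.00, as over all genes. Lrp1, an endocytic receptor of proteases, stood well above the floor only on the arrays numbered 2, with 5.31 in double-positive replicate 2 and 4.73 in CD31+ replicate 2.

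Substrates of the proteases differed in both directions. Of 27 measured, limma called 0 higher and 0 lower without the filter, and at an unadjusted p below 0.05 the counts were 7 and 6, against 12.5% and 2.12% of all genes. Of the 16 that passed the filter 6 were called higher, near the 33.2% of all genes, and 5 lower, against 4.11%, and after centring 5 were higher, against 12.6%, and 6 lower, against 9.63%. Tgfa, Reln and Bcan passed the filter through the double-positive arrays alone, and of the 13 others 3 were called higher, against 29.7% of all genes that reached 5 in both groups, and 5 lower, against 2.65%. Tgfa, an EGF receptor ligand that Adam17 releases, differed by 3.55, Reln, which encodes reelin, by 3.58 and the proteoglycan gene Bcan by 2.32, and none of the 3 passed over all probe sets (adjusted p = 0.113, 0.194 and 0.085 in limma). Efnb2, a ligand of Eph receptors, had 10.79, 10.20 and 10.78 on the double-positive arrays and 9.49, 8.69 and 8.44 on the CD31+ arrays, and passed with the filter (adjusted p = 0.00743). Col18a1, a basement membrane collagen, differed by 2.02 and App by 1.14, and both passed with the filter (adjusted p = 0.00634 and 0.032 from limma). After centring as well Col18a1 passed and App did not (adjusted p = 0.0324 and 0.365 from limma). Reln was also in the list of lymphatic markers.

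Those lower included Vegfc, the lymphatic growth factor, with 5.22, 4.63 and 5.0 on the double-positive arrays and 8.82, 7.95 and 7.64 on the CD31+ arrays, and its means differed by -3.19 (adjusted p in limma 0.0692 without and 0.000356 with the filter). The basement membrane collagens Col4a1 and Col4a2 (differences of -1.71 and -2.07), the growth factor Kitl (-1.59) and Vwf, the substrate of Adamts13 (-2.96), also passed with the filter as lower. Col18a1, of the same kind of collagen, went the other way, by 2.02. Vwf was also in the list of blood endothelial markers. Notch1, a substrate of Adam10, had 5.91, 6.73 and 6.68 on the double-positive arrays and 7.03, 5.73 and 6.25 on the CD31+ arrays, with a difference of 0.10. Notch4 lay near the floor on the double-positive arrays, at 2.61, 2.49 and 2.46, and had 6.27, 6.03 and 4.61 on the CD31+ arrays, and the means differed by -3.12 (adjusted p = 0.125 in limma). Cdh5 and the TNF receptor Tnfrsf1a each differed by -0.08. Vcan, the main substrate of Adamts1, Adamts5 and Adamts9, had 3.40, 7.0 and 3.26 on the double-positive arrays and 3.43, 4.68 and 3.66 on the CD31+ arrays, so that both groups were highest on the arrays numbered 2.

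**Figure D5:**
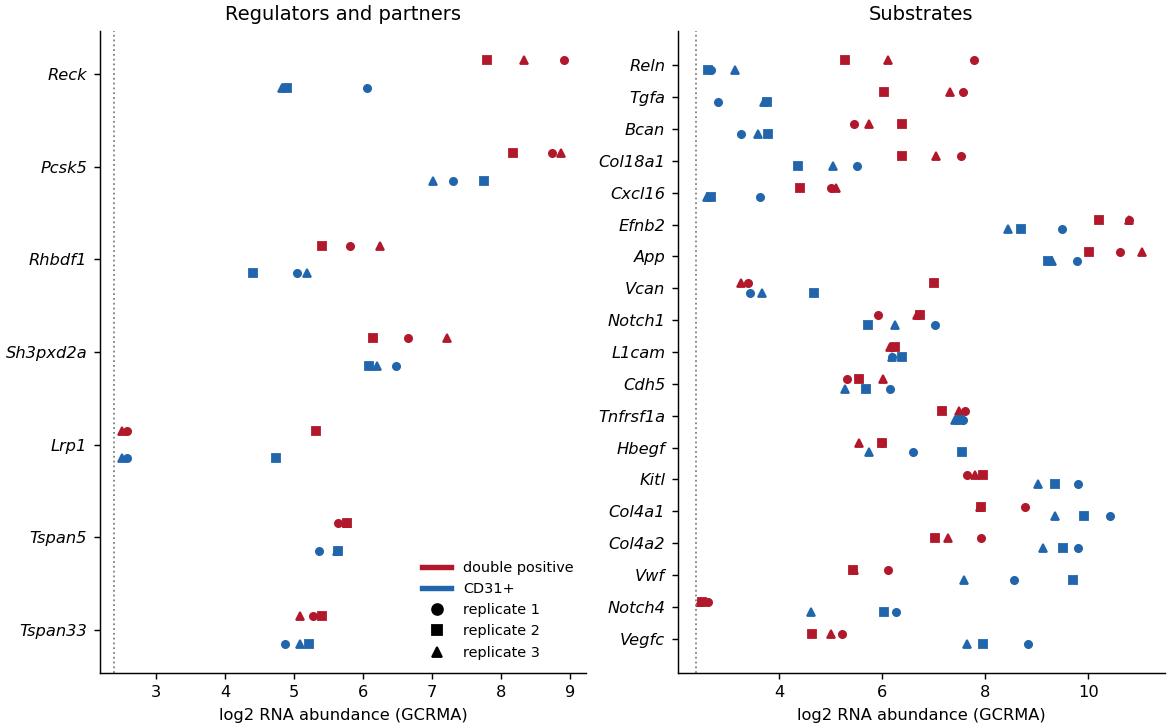
Log2 RNA abundance (GCRMA, horizontal axis) on each array for the listed regulators (left) and substrates (right) that reached 5 on any array, double positive in red above CD31+ in blue, with symbols for the replicate numbers and the floor dotted. Reck lies higher in the double-positive arrays, Vegfc, Notch4 and Vwf lie lower, and Lrp1 and Vcan are brightest on the arrays numbered 2.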

How the data were processed

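The authors normalized the arrays with GCRMA in Bioconductor after pairwise reproducibility plots, and deposited 1 log2 value of relative RNA abundance per probe set and array. Versions, and which arrays were normalized together, are not given in the sources used here. Raw intensities were not used. Of 45037 probe sets that are not controls, 34945 map to 1 gene of the platform table, of which 34741 were found in a RefSeq table (GRCm38.p6) that gave current symbols. On 37.4% of probe sets all 6 arrays lie within 0.1 of the floor of 2.39.

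Limma 3.58.1 in R 4.3.3 (lmFit, eBayes) was fitted on all 45037 probe sets with Benjamini-Hochberg adjustment over all of them at 5% FDR, without filter or block. Prior degrees of freedom were 0.356 over all probe sets and 4.92 with the filter, beside 4 residual ones. Code was tested on simulated arrays. Named were members that passed without the filter, with it, or with it and the block, those with a group mean of at least 5, and all Timp genes. Members and lists were chosen with earlier results of these data known. After subtraction of the group means, arrays with the same number correlated at 0.341, 0.475 and 0.418, and the series describes paired samples, so the numbers were taken to pair the arrays. The labels call the arrays biological replicates and do not give the animals per pool, and the number of arrays limits the precision. An exact permutation test of 3 against 3 cannot go below 0.1. Alternatives were the block, the filter, centred arrays and their combinations, trend and robust, 1% FDR, probe sets averaged or any probe set of a gene, and arrays left out. Fits with the filter and 1 array left out, fits without either array numbered 2, and counts over genes that reach 5 in both groups were chosen after seeing the data. Listed genes without a probe set of their own were not analysed here. Figures were drawn with matplotlib 3.10.9.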

Additional observations from a re-analysis of the deposited data

How the results depend on the processing

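The count of 2 members called higher was 2 with trend and robust and with any probe set of a gene, and 0 with the replicate block and at 1% FDR. Of all genes 0.879% were called higher without filter or block, and 0.011% with the block. The count was 8 with the filter, 8 with the filter and the block, and 8 with centred arrays, against 33.2%, 46.4% and 7.2% of all genes. It was 6 with the filter and centred arrays, against 12.6% of all genes, and 6 with probe sets averaged per gene. These counts with the filter include Mmp9 and Adamts5, which passed it through the double-positive arrays alone. With averaging Adam10, Adamts5 and Mmp14 passed without a filter, at smaller differences of 0.42, 1.15 and 0.46 (adjusted p = 0.0318, 0.00760 and 0.0487 from limma). Timp2, Timp3 and Timp4 did not pass there (adjusted p = 0.0663, 0.0901 and 0.144 from limma). The shares of all genes called with averaging, with trend and robust, with any probe set, at 1% FDR and with arrays left out were not computed. Leaving out any 1 array gave 0 to 1, and 5 to 8 with the filter, where Mmp9 and Adamts5 are not tested once a double-positive array is missing. Leaving out both arrays numbered 2 gave 0, and 6 with the filter. The count of 0 members called lower stayed 0 under all of these except centred arrays without the filter, which gave 54, against 67.2% of all genes. That is because centring moves values at the floor apart by 0.68. With centred arrays the differences of Adam17, Adamts9 and Timp1 became -0.04, -0.32 and -0.42, the first and second also with the filter on centred arrays (-0.04 and -0.32). No difference of a named member changed sign under the other alternatives. The block changed the calls of Mmp9 and Adam9 without the filter (adjusted p = 0.109 and 0.169 from limma) and no call of a named member with it. Values near the floor limit what can be seen of the 58 members not named by the rule.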
